A study of Homo sapiens with 27 samples.

Results

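The genes described are 10 receptors, ubiquitin ligases, feedback inhibitors and transcription factors of the Wnt and Hedgehog pathways. LGR4, LGR5, RNF43, ZNRF3, AXIN2, DACT1 and TCF7L2 belong to the Wnt pathway, and PTCH1, HHIP and GLI3 to the Hedgehog pathway. They were found by gene symbol through the Ensembl gene IDs of the deposited tables, as 10 of 41686 human genes in the table of shRNA libraries and 10 of 34742 in the table of siRNA libraries. All 10 reached the mean of 10 normalized counts that was required for a test in each table.

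The cells were SHP77, a human small cell lung cancer line. The study asked what depends on circRMST, a circular RNA from the RMST gene, and on SOX2 and NKX2-1, the transcription factors it describes as partners of the circle. Cells that stably carried shGFP (n = 2 libraries), circRMST shRNA 1 (n = 2) or circRMST shRNA 2 (n = 2) were made with lentivirus and selected for 3 days or longer with 3 µg/ml puromycin, and total RNA was sequenced. Cells transfected for 72 hours with si-control (n = 3), SOX2 siRNA 1 or 2 (n = 2 each) or NKX2-1 siRNA 1 or 2 (n = 2 each) gave poly(A) RNA. All groups are a single cell line, and whether the shRNA cells were clones is not given in the sources used here. The submitters call the replicates biological, and nothing says that they were separate cultures, so the p-values measure only the spread between these libraries.

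In the Wnt pathway, secreted Wnt proteins bind Frizzled and LRP receptors, and beta-catenin then accumulates and acts with TCF/LEF factors on target genes. Several targets act back on the pathway: RNF43 and ZNRF3 remove Frizzled from the cell surface, R-spondins bound to LGR receptors take these ligases away, and AXIN2 rebuilds the complex that degrades beta-catenin. In the Hedgehog pathway, a ligand binds PTCH1 and releases the transducer Smoothened, and GLI factors then switch target genes, among them PTCH1 and the ligand decoy HHIP. Both pathways pattern the embryonic lung and are used again in its tumours.

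The labels were first read against the targeted genes. SOX2 stood at 1191, 1152 and 1084 normalized counts in the si-control libraries, at 396 and 389 with SOX2 siRNA 1 and at 466 and 439 with SOX2 siRNA 2, a fall of 2.70-fold (log2 fold change -1.43, SE 0.05, adjusted p = 9.85e-19; limma, Benjamini-Hochberg over all genes tested, here and below). NKX2-1 stood at 2199, 2357 and 2145 in si-control, at 959 and 1070.0 with NKX2-1 siRNA 1 and at 836 and 796 with NKX2-1 siRNA 2, a fall of 2.45-fold (-1.29, SE 0.05, adjusted p = 1.26e-17). SOX2 also rose 1.94-fold with the NKX2-1 siRNAs (0.96, SE 0.05, adjusted p = 1.43e-14). The RMST entry counts the whole gene and checks nothing about the circle. Depth was 46.9 to 57.4 M reads per shRNA library, with 40.5 to 45.4% of them from MT-RNR2, a ribosomal RNA of mitochondria, and 15.5 to 50.1 M reads per siRNA library.

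Markers of the labelled cell type were present in every group. The neuroendocrine markers INSM1, CHGA, SYP, NCAM1, DLL3 and UCHL1 were at 0 in none of the groups, and summed to 27337 to 29264 normalized counts in shGFP, 31808 to 31916 with circRMST shRNA 1, 25443 to 25808 with shRNA 2 and 47365 to 54905 over the siRNA libraries. The 7 fibroblast markers summed to 437 to 573 in shGFP, 806 to 877 with circRMST shRNA 1 and 467 to 535 with shRNA 2, and of the 4 that were tested 1 (LUM) rose and 3 fell in circRMST knockdown. In the siRNA table they summed to 145 to 165 in si-control, 361 to 536 with the SOX2 siRNAs and 209 to 242 with the NKX2-1 siRNAs, and COL1A2, COL3A1 and PDGFRB were each at 0 in at least 1 group of each table. Blood and endothelial markers summed to 403 to 418 in shGFP and 148 to 181 in the circRMST knockdown libraries, and to 341 to 354 in si-control, 75.1 to 136 with the SOX2 siRNAs, 148 to 159 with NKX2-1 siRNA 1 and 437 to 443 with NKX2-1 siRNA 2, with LYZ at 0 in 1 or more groups of each table. The part of these markers in the results below was not tested. In bulk RNA, fewer cells of a type and less RNA per cell cannot be told apart.

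HHIP, DACT1 and LGR4 passed in the averages of all 3 knockdowns, HHIP upward each time and DACT1 and LGR4 in both directions. LGR4 did not pass with circRMST shRNA 1 (0.01, adjusted p = 0.914), SOX2 siRNA 2 (-0.06, adjusted p = 0.527) or NKX2-1 siRNA 2 alone. Its circRMST call was lost in several alternatives, given below. In circRMST knockdown (the average of both shRNAs against shGFP), HHIP, PTCH1, AXIN2 and LGR4 rose and DACT1 and GLI3 fell. Those are 4 of 10 higher and 2 of 10 lower, where 27.8% of the 19068 genes tested were higher and 25.9% lower at an adjusted p under 0.05. With the SOX2 siRNAs, DACT1, HHIP and ZNRF3 rose and PTCH1, LGR4 and GLI3 fell, 3 of 10 in each direction beside 27.6% higher and 28.7% lower among 16750 genes. With the NKX2-1 siRNAs, LGR5, HHIP, TCF7L2, DACT1 and ZNRF3 rose and RNF43 and LGR4 fell, 5 and 2 of 10 beside 18.5% and 21.4% of all genes. TCF7L2 is among the 5 although its si-control mean was under 10, so it was tested through its higher groups and that count is a description only. The TCF7L2 and RNF43 calls were lost in several alternatives, given below. The members' median log2 fold change was -0.01 in circRMST knockdown, 0.05 with the SOX2 siRNAs and 0.12 with the NKX2-1 siRNAs, beside medians of 0.0015, 0.0071 and -0.0043 over all genes tested, so the genes did not move as a block. The SOX2 and NKX2-1 comparisons share the same 3 si-control libraries.

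**Figure D1:**
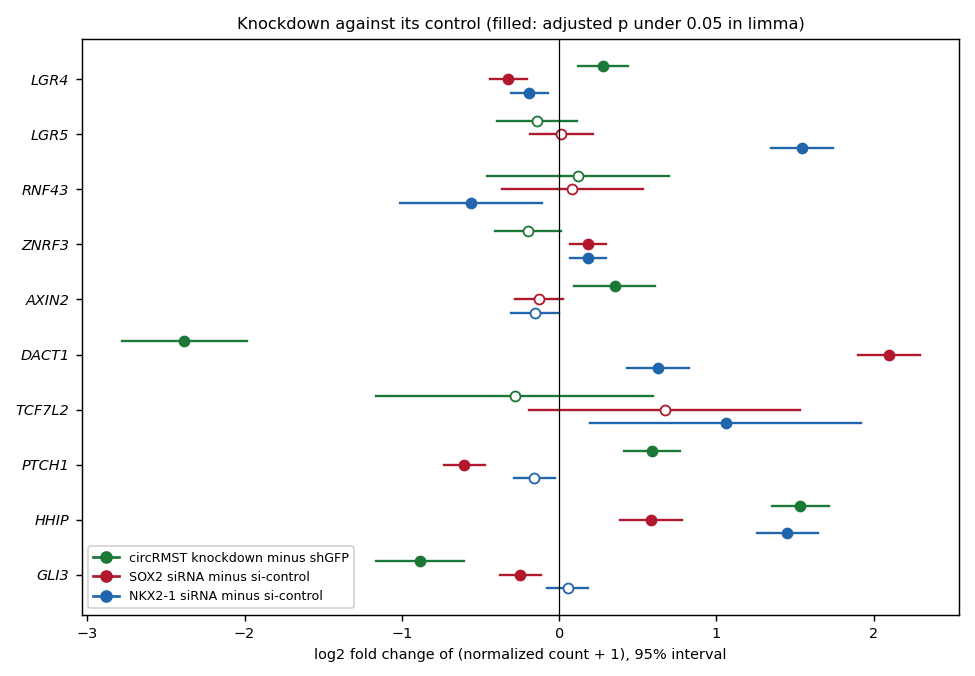
Log2 fold change of (normalized count + 1) for the 10 genes in the 3 knockdowns, each the average of its reagents against its own control, with 95% confidence intervals from limma. Filled points passed at an adjusted p under 0.05. DACT1 lies at -2.38 in circRMST knockdown and at 2.10 with the SOX2 siRNAs, and HHIP lies above 0 in all 3.

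LGR4 and LGR5 are the receptors through which R-spondins strengthen Wnt signals, and LGR5 also marks stem cells of several epithelia. LGR5 (ENSG00000139292.12, chr12:71439129-71586310 in GRCh38.p14, protein coding) stood at 119.8, 132 and 141 normalized counts in si-control, at 442 and 429 with NKX2-1 siRNA 1 and at 346 and 326 with NKX2-1 siRNA 2. Each of the 4 NKX2-1 siRNA libraries was above every control library, and LGR5 rose 2.91-fold (1.54, SE 0.10, adjusted p = 5.72e-13). The SOX2 siRNA libraries were at 120.3 and 122 with siRNA 1 and 135 and 152 with siRNA 2 and overlapped the controls, and the change did not pass (0.01, SE 0.10, adjusted p = 0.915, 95% interval -0.18 to 0.21). LGR5 in the shRNA table was at 319.5 and 326 in shGFP, 267 and 316 with circRMST shRNA 1 and 292 and 295 with shRNA 2. All 4 knockdown libraries were lower than both controls, by a margin that did not pass (-0.14, SE 0.12, adjusted p = 0.345, 95% interval -0.40 to 0.11).

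LGR4 (ENSG00000205213.13, chr11:27365961-27472790) differed between the reagents of each target. With circRMST shRNA 1 it was at 1153 and 1429 normalized counts, on either side of the shGFP libraries at 1270.0 and 1273, and with shRNA 2 it was at 1846 and 1874, above every other library. The shRNA 1 value was 0.01 (adjusted p = 0.914) and the shRNA 2 value 0.55 (adjusted p = 2.05e-05), and the average rose (0.28, SE 0.08, adjusted p = 0.00351). The call on the average was lost without shGFP replicate 1 (0.28, adjusted p = 0.0608), without shGFP replicate 2 (0.28, adjusted p = 0.0554), with equal library totals (0.14, adjusted p = 0.147) and with no filter on low values (0.28, adjusted p = 0.0514), where adjusted p spanned 0.000206 to 0.147 across 16 settings. In the siRNA table LGR4 was at 745, 718 and 713 in si-control, 474 and 487 with SOX2 siRNA 1 and 719 and 676 with SOX2 siRNA 2. SOX2 siRNA 1 lay below all controls and SOX2 siRNA 2 overlapped them, and the average fell (-0.32, SE 0.06, adjusted p = 2.24e-05). NKX2-1 siRNA 1 gave 601 and 558 and siRNA 2 gave 692 and 701, all under the lowest control, and the average fell slightly (-0.19, SE 0.06, adjusted p = 0.00888), a call lost with equal totals (-0.13, adjusted p = 0.0662; adjusted p spanned 0.00499 to 0.0662 across 22 settings). The antisense gene LGR4-AS1 overlaps LGR4 and had 0 to 9 reads per group. Whether counting used strand is not given in the sources used here.

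RNF43 and ZNRF3 are transmembrane ubiquitin ligases that mark Frizzled for removal, and both are Wnt targets in the gut. ZNRF3 (ENSG00000183579.15, chr22:28883572-29057488) was at 811, 893 and 865 normalized counts in si-control, 1012 and 934 with SOX2 siRNA 1, 1032 and 917 with SOX2 siRNA 2, 1045 and 988 with NKX2-1 siRNA 1 and 925 and 932 with NKX2-1 siRNA 2. All 8 siRNA libraries were above the highest control, and the rise was small and of like size with the SOX2 siRNAs (0.18, SE 0.05, adjusted p = 0.00561) and the NKX2-1 siRNAs (0.18, SE 0.05, adjusted p = 0.00922). Both calls rested on si-control replicate 1, the lowest control: without it the values were 0.15, adjusted p = 0.0535 and 0.14, adjusted p = 0.0773, where adjusted p spanned 0.00118 to 0.0535 across 22 settings for SOX2 and 0.000900 to 0.0773 across 22 settings for NKX2-1. In the shRNA table ZNRF3 was at 781 and 644 in shGFP, 603 and 490.0 with circRMST shRNA 1 and 703 and 701 with shRNA 2. The shRNA 1 libraries were below both controls and the shRNA 2 libraries lay between them. With shRNA 1 alone ZNRF3 fell (-0.38, adjusted p = 0.00851), and with shRNA 2 it was at -0.01 (adjusted p = 0.936). The average did not pass (-0.20, SE 0.10, adjusted p = 0.104, 95% interval -0.41 to 0.01), but it passed without shGFP replicate 2 (-0.34, adjusted p = 0.0499), without shRNA 1 replicate 1 (-0.27, adjusted p = 0.0322) and with equal totals (-0.34, adjusted p = 0.00689), quantile normalization (-0.27, adjusted p = 0.0358) or equal totals without mitochondrially encoded genes (-0.26, adjusted p = 0.0336), where adjusted p spanned 0.00689 to 0.745 across 16 settings. Reads of ZNRF3-AS1, which overlaps ZNRF3, numbered 5 to 14 per group.

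RNF43 (ENSG00000108375.12, chr17:58352500-58417534), which TSPOAP1-AS1 overlaps, had few reads, from 36 to 210 per group. It was at 36.2, 36.6 and 53.6 normalized counts in si-control, 37.8 and 34.8 with NKX2-1 siRNA 1 and 19.2 and 23.4 with NKX2-1 siRNA 2. Libraries of NKX2-1 siRNA 2 were below all controls, while those of siRNA 1 lay on either side of the 2 lower controls. The average fell (-0.56, SE 0.22, adjusted p = 0.0431), siRNA 2 alone gave -0.93 (adjusted p = 0.00669) and siRNA 1 alone -0.19 (adjusted p = 0.615). The average passed in 12 of 21 alternatives, and adjusted p spanned 0.0410 to 0.243 over them. It was lost without si-control replicate 3, the highest control (-0.38, adjusted p = 0.236), without NKX2-1 siRNA 1 replicate 1 (-0.59, adjusted p = 0.0721) or replicate 2 (-0.53, adjusted p = 0.107) and without siRNA 2 replicate 1 (-0.49, adjusted p = 0.112). It was also lost in DESeq2 (-0.60, adjusted p = 0.100), with equal totals (-0.50, adjusted p = 0.0682), with equal totals without mitochondrially encoded genes (-0.54, adjusted p = 0.0511) and with no filter on low values (-0.56, adjusted p = 0.114). With the SOX2 siRNAs RNF43 was at 59.1 and 41.9 (siRNA 1) and 36.2 and 41.6 (siRNA 2), overlapping the controls (0.08, SE 0.22, adjusted p = 0.767, 95% interval -0.37 to 0.53). In the shRNA table it was at 82.2 and 74.0 in shGFP, 110.0 and 103 with circRMST shRNA 1 and 108 and 42.4 with shRNA 2, whose replicates fell on either side of the controls (0.12, SE 0.28, adjusted p = 0.739, 95% interval -0.46 to 0.70). Reads of TSPOAP1-AS1 were not looked at, and their part in the RNF43 values was not tested.

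AXIN2, a scaffold of the beta-catenin destruction complex and a widely used readout of Wnt signalling, changed little. AXIN2 (ENSG00000168646.12, chr17:65528563-65561648, with no overlapping gene) was at 240.4 and 233 normalized counts in shGFP, 292 and 302 with circRMST shRNA 1 and 292 and 323 with shRNA 2. All 4 knockdown libraries were above both controls, and AXIN2 rose 1.28-fold (0.35, SE 0.12, adjusted p = 0.0201). The call was lost without shGFP replicate 1 (0.38, adjusted p = 0.0652) or replicate 2 (0.33, adjusted p = 0.0958), without replicate 2 of shRNA 1 (0.34, adjusted p = 0.0502) or of shRNA 2 (0.32, adjusted p = 0.0604), in DESeq2 (0.33, adjusted p = 0.0715), with equal totals (0.21, adjusted p = 0.169) and with equal totals without mitochondrially encoded genes (0.29, adjusted p = 0.0567), where adjusted p spanned 0.0181 to 0.169 across 16 settings. Equal totals moved the median of all genes in that comparison from 0.0015 to -0.14, so AXIN2 at 0.21 was then still above the median of all genes. In the siRNA table AXIN2 was at 363, 347 and 342 in si-control, 301 and 305 with SOX2 siRNA 1, 333 and 346 with SOX2 siRNA 2, 333 and 312 with NKX2-1 siRNA 1 and 320.1 and 299 with NKX2-1 siRNA 2. Of the 8 siRNA libraries, 7 were below the lowest control and SOX2 siRNA 2 replicate 2 was not. Neither the SOX2 value (-0.13, SE 0.07, adjusted p = 0.145, 95% interval -0.28 to 0.02) nor the NKX2-1 value passed (-0.15, SE 0.07, adjusted p = 0.109, 95% interval -0.30 to 0.00).

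DACT1 encodes a Dishevelled-binding protein that tempers Wnt signalling, and it gave the largest change of the 10 in circRMST knockdown and with the SOX2 siRNAs, in opposite directions. In shGFP DACT1 (ENSG00000165617.14, chr14:58634061-58648321, with no overlapping gene) was at 382 and 363 normalized counts, with circRMST shRNA 1 at 61.8 and 48.9 and with shRNA 2 at 79.0 and 103. The highest knockdown library was far under the lowest control, and DACT1 fell 5.22-fold (-2.38, SE 0.19, adjusted p = 3.07e-10). In si-control it was at 126, 109.7 and 103, with SOX2 siRNA 1 at 447 and 405 and with SOX2 siRNA 2 at 532 and 569. All 4 SOX2 siRNA libraries stood above every control and every NKX2-1 siRNA library, a rise of 4.27-fold (2.10, SE 0.10, adjusted p = 2.13e-16). NKX2-1 siRNA 1 gave 139.7 and 162 and siRNA 2 gave 199.5 and 204, also all above the controls (0.63, SE 0.10, adjusted p = 5.99e-06). These 3 calls held in each alternative run, with the lowest circRMST value at -2.53 and the highest at -2.29.

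The circRMST falls were read against a property of the shGFP libraries. Of 1548 protein-coding genes with no read in any siRNA library, 82.4 to 85.6% had at least 1 read in the shGFP libraries and 14.7 to 20.5% in the circRMST knockdown libraries. The excess of shGFP over knockdown in these genes, as a difference of means, had a median of 4.03 normalized counts, a 99th percentile of 38.7 and a largest value of 271. For DACT1 the excess of shGFP was 299, above the largest of these genes, and for GLI3 it was 165, above their 99th percentile but under the largest. Excesses of ZNRF3 (87.8) and LGR5 (29.9), which did not pass, lay within that range. The part of these low-level reads in the falls was not tested.

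The DACT1 sequence before a start of the gene (chr14:58633811-58634060, plus strand, GRCh38.p14, from RefSeq) is shown because DACT1 moved in all 3 knockdowns, with capitals for the match to the TCF/LEF string CTTTGAA, which begins 214 bases before that start.
DACT1: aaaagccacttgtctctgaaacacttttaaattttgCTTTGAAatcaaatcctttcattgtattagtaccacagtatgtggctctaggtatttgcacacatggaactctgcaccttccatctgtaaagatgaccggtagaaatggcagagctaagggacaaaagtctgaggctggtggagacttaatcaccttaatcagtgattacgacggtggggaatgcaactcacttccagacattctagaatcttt
RefSeq windows of 300 bases, 250 before to 50 after a start, were on hand for 6 of the 10 genes, 15 windows in all: 5 of PTCH1, 3 each of DACT1 and TCF7L2, 2 of RNF43 and 1 each of HHIP and LGR4. LGR5, ZNRF3, AXIN2 and GLI3 are named only. The strings searched on both strands were CTTTGAT and CTTTGAA for TCF/LEF, GACCACCCA for GLI, ATTGTT for SOX, and CACTTGA and CTCAAGT for NKX2-1, the last pair of which can overlap each other on opposite strands. Among 35116 windows of this length, 6.86% held a TCF/LEF string, 0.236% the GLI string, 10.1% the SOX string and 4.43% an NKX2-1 string. The members' windows held 3 matches: CTTTGAA in DACT1, the GLI string in PTCH1, and ATTGTT at 109 bases before a TCF7L2 start. A match is a run of letters and does not show that a factor binds there.

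TCF7L2, the TCF/LEF factor that carries much of the beta-catenin response in epithelia, had the fewest reads of the 10 genes. They numbered 14 in si-control, 32 and 11 with SOX2 siRNA 1 and 2, and 49 and 24 with NKX2-1 siRNA 1 and 2, summed over the libraries of a group. TCF7L2 (ENSG00000148737.16, chr10:112950247-113167678) was at 4.99, 3.66 and 9.87 normalized counts in si-control, 9.44 and 15.9 with NKX2-1 siRNA 1 and 16.9 and 11.1 with NKX2-1 siRNA 2. The lowest NKX2-1 siRNA library was just under the highest control, and the si-control mean was under the 10 required over all libraries, so the gene was tested through its higher groups. TCF7L2 rose in the average (1.06, SE 0.42, adjusted p = 0.0461), where adjusted p spanned 0.0193 to 0.186 across 21 settings. The call was lost without si-control replicate 1 (0.98, adjusted p = 0.116) or 2 (0.79, adjusted p = 0.186), without NKX2-1 siRNA 1 replicate 2 (0.88, adjusted p = 0.167), without siRNA 2 replicate 1 (0.92, adjusted p = 0.140), in DESeq2 (1.16, adjusted p = 0.116) and with no filter on low values (1.06, adjusted p = 0.144). With the SOX2 siRNAs it was at 12.8 and 17.2 (siRNA 1) and 9.34 and 4.03 (siRNA 2) (0.67, SE 0.42, adjusted p = 0.179), and in the shRNA table at 25.7 and 21.8 in shGFP, 27.2 and 16.6 with circRMST shRNA 1 and 18.4 and 16.5 with shRNA 2 (-0.28, SE 0.43, adjusted p = 0.601). SOX2 siRNA 1 lay above every control and passed alone (1.24, adjusted p = 0.0393), SOX2 siRNA 2 overlapped the controls (0.10, adjusted p = 0.886), and circRMST shRNA 2 lay below both shGFP libraries while shRNA 1 spanned them. The 95% intervals of the averages, -0.19 to 1.53 and -1.17 to 0.60, reach past 1 log2 unit upward with the SOX2 siRNAs and downward in circRMST knockdown.

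**Figure D2:**
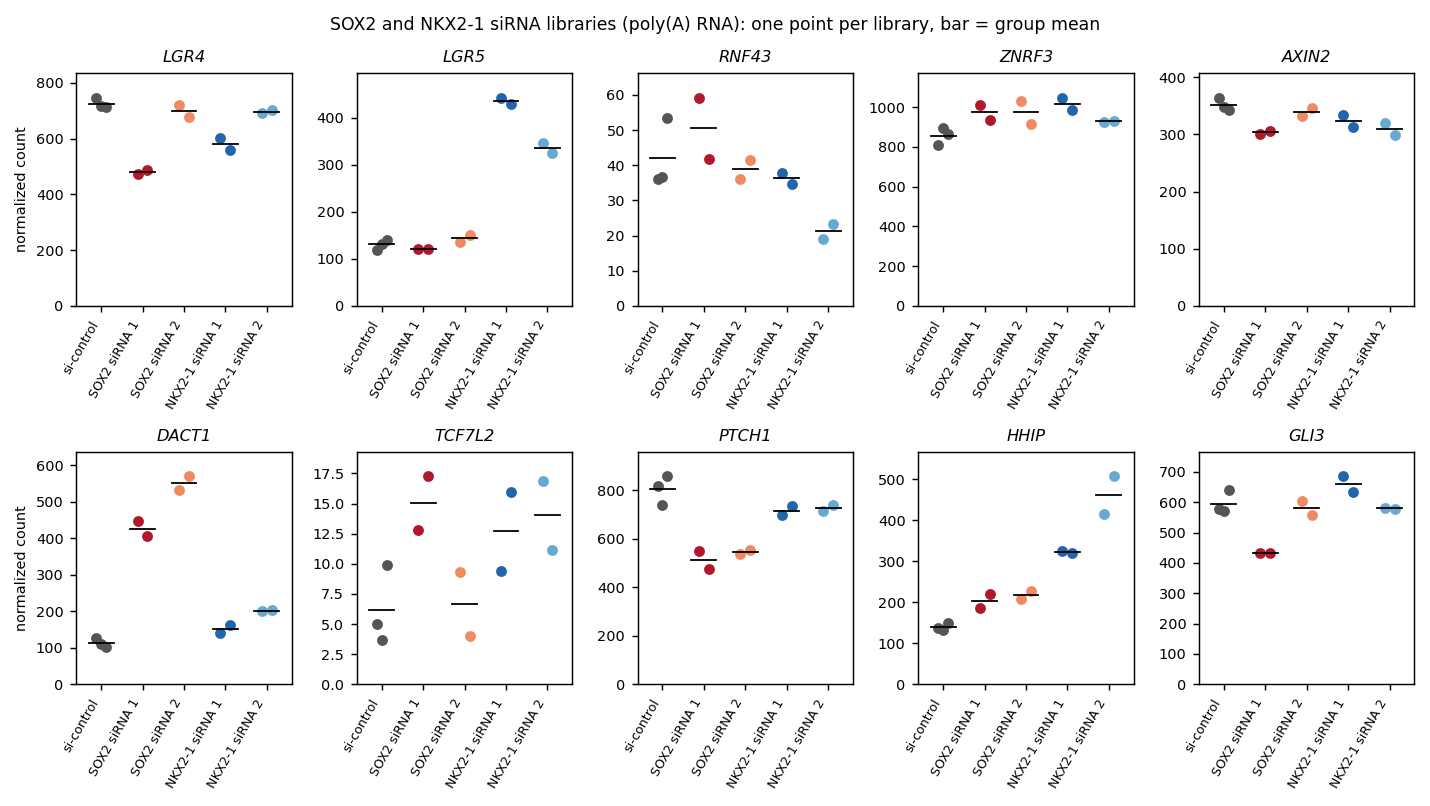
Normalized count of each gene in the 11 siRNA libraries, 1 point per library, with bars at the group means and every axis starting at 0. LGR5 is high in the 4 NKX2-1 siRNA libraries alone (lowest 326, highest control 141), and DACT1 is highest in the 4 SOX2 siRNA libraries (lowest 405).

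HHIP, the membrane protein that binds and holds back Hedgehog ligands, rose in all 3 knockdowns. HHIP (ENSG00000164161.9, chr4:144646156-144745271) was at 350.4 and 422 normalized counts in shGFP, 944 and 916 with circRMST shRNA 1 and 1319 and 1363 with shRNA 2. The lowest knockdown library was far above the highest control, and HHIP rose 2.90-fold (1.53, SE 0.09, adjusted p = 8.12e-13). In the siRNA table it was at 139, 133 and 149 in si-control, 187 and 220.5 with SOX2 siRNA 1, 208 and 228 with SOX2 siRNA 2, 325 and 321 with NKX2-1 siRNA 1 and 415 and 507 with NKX2-1 siRNA 2. All 8 siRNA libraries were above the controls, and the NKX2-1 siRNA libraries were all above the SOX2 siRNA libraries. HHIP rose with the SOX2 siRNAs (0.58, SE 0.10, adjusted p = 7.96e-06) and 2.73-fold with the NKX2-1 siRNAs (1.45, SE 0.10, adjusted p = 1.46e-12). All 3 calls held in each alternative run. In circRMST knockdown NKX2-1 itself was lower (-0.41, SE 0.08, adjusted p = 0.000166) and SOX2 slightly higher (0.24, SE 0.06, adjusted p = 0.00238). By reagent, NKX2-1 was at -0.62 (adjusted p = 5.61e-06) with shRNA 1 and at -0.19 (adjusted p = 0.0950) with shRNA 2. SOX2 was at 0.14 (adjusted p = 0.121) with shRNA 1 and at 0.35 (adjusted p = 0.000410) with shRNA 2. The part of NKX2-1 and SOX2 in the HHIP change was not tested.

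PTCH1, the Hedgehog receptor that is also a target and readout of the pathway, rose in circRMST knockdown and fell with the SOX2 siRNAs. PTCH1 (ENSG00000185920.15, chr9:95442980-95516971) was at 572 and 670.1 normalized counts in shGFP, 1005 and 972 with circRMST shRNA 1 and 923 and 845 with shRNA 2. The knockdown libraries were all above the controls, a rise of 1.51-fold (0.59, SE 0.09, adjusted p = 3.68e-06). In the siRNA table it was at 819, 739.7 and 857 in si-control, 550.2 and 474 with SOX2 siRNA 1 and 538 and 554 with SOX2 siRNA 2. All SOX2 siRNA libraries were below all others, a fall of 1.52-fold (-0.60, SE 0.06, adjusted p = 5.3e-09). With NKX2-1 siRNA 1 it was at 697 and 735 and with siRNA 2 at 714 and 738, all of them just under the lowest control, and the average missed the threshold (-0.16, SE 0.06, adjusted p = 0.0505). That value passed in 6 of 22 alternatives, among them without si-control replicate 2 (-0.22, adjusted p = 0.0191) and without SOX2 siRNA 1 replicate 1 (-0.16, adjusted p = 0.0243) or replicate 2 (-0.16, adjusted p = 0.0235), where adjusted p spanned 0.0191 to 0.275 across 22 settings.

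The sequences before a start of HHIP (chr4:144645906-144646155, plus strand) and of PTCH1 (chr9:95509267-95509516, minus strand), both GRCh38.p14 from RefSeq and written 5′ to 3′, are shown because both genes are Hedgehog targets that moved in these data, with capitals for the match in PTCH1 to the reverse complement of the GLI string GACCACCCA, at 172 bases before this start.
HHIP: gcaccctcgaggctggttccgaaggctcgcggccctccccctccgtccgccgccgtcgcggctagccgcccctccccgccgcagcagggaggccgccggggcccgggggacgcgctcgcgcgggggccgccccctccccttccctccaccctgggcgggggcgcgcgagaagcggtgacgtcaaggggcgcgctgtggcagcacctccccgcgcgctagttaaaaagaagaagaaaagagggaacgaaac
PTCH1: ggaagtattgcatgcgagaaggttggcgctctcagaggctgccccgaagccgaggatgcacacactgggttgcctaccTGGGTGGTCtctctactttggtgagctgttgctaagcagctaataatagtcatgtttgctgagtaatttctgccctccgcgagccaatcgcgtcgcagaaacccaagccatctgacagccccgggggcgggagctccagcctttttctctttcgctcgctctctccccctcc
The HHIP window held none of the strings searched, which says only that these letters are not in it. Its 300 bases were 72.7% G or C with 36 CpG pairs and those of PTCH1 57% with 13, beside medians of 58.7% and 14 over all windows. The DACT1 window above was 42.3% G or C with 3 CpG pairs. The other DACT1 windows were at 65.7% with 27 CpG pairs and 78.3% with 44, and the other PTCH1 windows at 53.3% to 68% with 18 to 27. For DACT1 and PTCH1 the window shown is the one that held a match.

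GLI3, the GLI factor that acts mostly as a repressor when no Hedgehog ligand is present, fell in circRMST knockdown. GLI3 (ENSG00000106571.12, chr7:41960949-42264268) was at 343 and 372 normalized counts in shGFP, 196 and 189.7 with circRMST shRNA 1 and 205 and 182 with shRNA 2. The groups did not overlap, and both shRNAs gave a fall of the same size (-0.89 and -0.89; average -0.89, SE 0.13, adjusted p = 6.93e-06). In the siRNA table GLI3 was at 577, 572 and 639.9 in si-control, 434 and 434 with SOX2 siRNA 1 and 604 and 557 with SOX2 siRNA 2. Libraries of siRNA 1 were the lowest of the table and those of siRNA 2 reached into the controls, and the average fell (-0.25, SE 0.06, adjusted p = 0.00146). With the NKX2-1 siRNAs it was at 685 and 633 (siRNA 1) and 583 and 578 (siRNA 2), overlapping the controls (0.05, SE 0.06, adjusted p = 0.527, 95% interval -0.07 to 0.18).

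**Figure D3:**
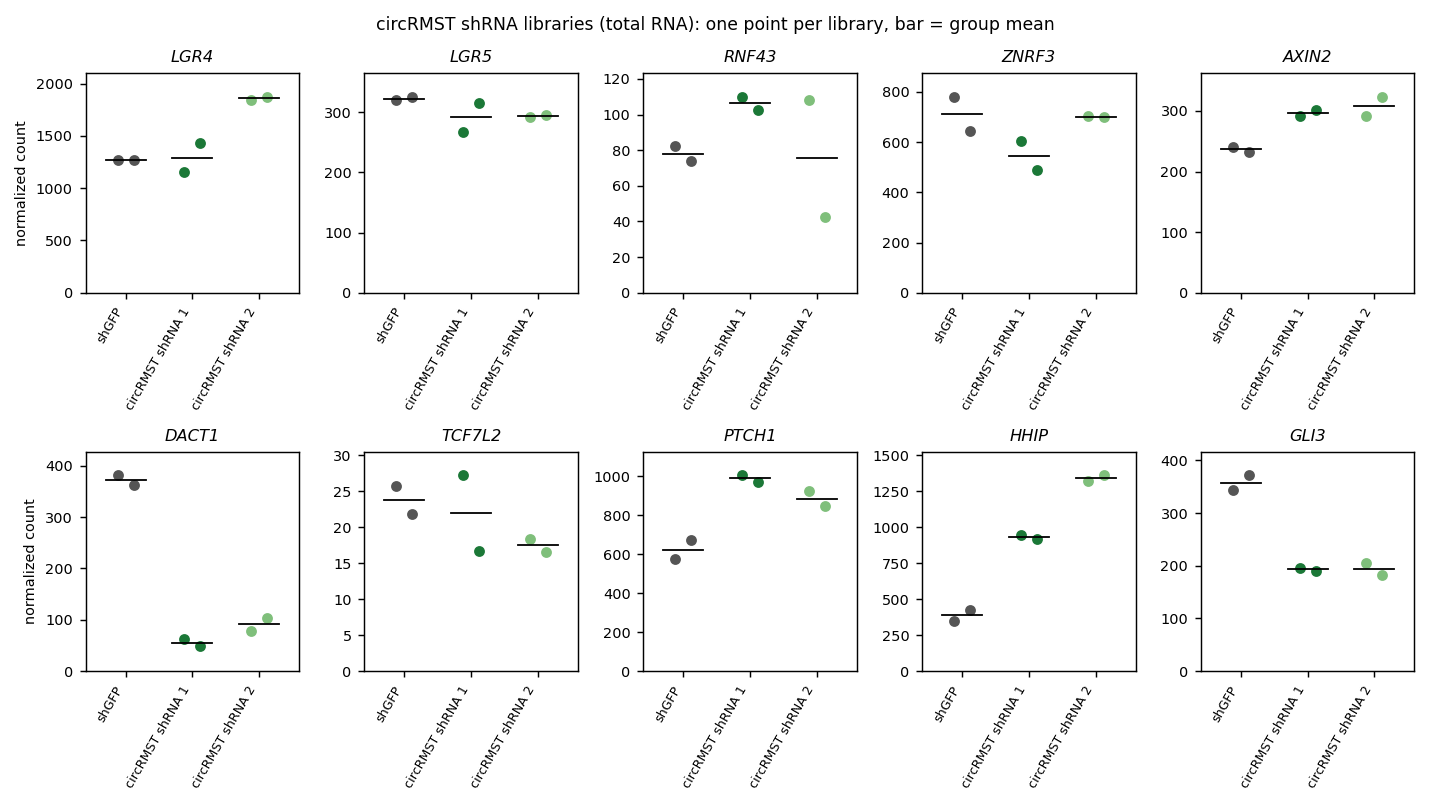
Normalized count of each gene in the 6 shRNA libraries, 1 point per library, with bars at the group means and every axis starting at 0. HHIP and PTCH1 are higher and DACT1 and GLI3 lower in all 4 circRMST knockdown libraries, and LGR4 is higher with shRNA 2 alone.

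SOX2 and NKX2-1 siRNAs were also compared directly, with the control libraries entering only the estimate of spread. Relative to the NKX2-1 siRNAs, the SOX2 siRNAs left 2 of the 10 genes higher and 5 lower, beside 27.9% higher and 28% lower of all 16750 genes. DACT1 (1.47, SE 0.09, adjusted p = 8.8e-14) and RNF43 (0.64, SE 0.20, adjusted p = 0.00851) were higher with the SOX2 siRNAs. LGR5 (-1.53, SE 0.09, adjusted p = 5.02e-14), HHIP (-0.87, SE 0.09, adjusted p = 2.97e-09), PTCH1 (-0.45, SE 0.06, adjusted p = 2.69e-07), GLI3 (-0.30, SE 0.06, adjusted p = 7.53e-05) and LGR4 (-0.13, SE 0.05, adjusted p = 0.0335) were lower. For GLI3 and LGR4, only SOX2 siRNA 1 lay below all NKX2-1 siRNA libraries. SOX2 siRNA 2 lay on either side of NKX2-1 siRNA 2 for both genes. Against NKX2-1 siRNA 1 it was lower for GLI3 and higher for LGR4. ZNRF3 and AXIN2 did not pass, with 95% intervals of -0.10 to 0.11 and -0.12 to 0.16, and the interval of TCF7L2 was -1.19 to 0.41. For RNF43, NKX2-1 siRNA 2 lay below all SOX2 siRNA libraries, while NKX2-1 siRNA 1 overlapped SOX2 siRNA 2. The RNF43 call was lost without SOX2 siRNA 1 replicate 1 (0.52, adjusted p = 0.0590; adjusted p spanned 0.00172 to 0.0590 across 21 settings). For LGR4 it was lost in 7 of 22 alternatives, without any of NKX2-1 siRNA 1 replicate 1 (-0.11, adjusted p = 0.139), NKX2-1 siRNA 2 replicate 1 (-0.14, adjusted p = 0.0615) or 2 (-0.13, adjusted p = 0.0814), SOX2 siRNA 1 replicate 1 (-0.12, adjusted p = 0.0690) and SOX2 siRNA 2 replicate 2 (-0.11, adjusted p = 0.125), where adjusted p spanned 0.00388 to 0.139 across 22 settings.

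Reagents of a target did not always give the same size. Between the circRMST shRNAs, 4 of 10 genes differed, beside 19.1% of all genes; between the SOX2 siRNAs 3 of 10, beside 18.5%; and between the NKX2-1 siRNAs 4 of 10, beside 26.5%. HHIP rose with circRMST shRNA 1 (1.27) and more with shRNA 2 (1.80), and with NKX2-1 siRNA 1 (1.20) less than with siRNA 2 (1.70). DACT1 kept its direction with each reagent, at -2.74 and -2.03 with the circRMST shRNAs, 1.91 and 2.28 with the SOX2 siRNAs and 0.42 and 0.84 with the NKX2-1 siRNAs. LGR5 was at 1.73 and 1.36 with the NKX2-1 siRNAs. LGR4 and GLI3 with the SOX2 siRNAs passed with siRNA 1 (-0.59 and -0.46) and not with siRNA 2 (-0.06, adjusted p = 0.527, and -0.04, adjusted p = 0.709). NKX2-1 was left lower by its siRNA 2 than by siRNA 1 (difference 0.31, SE 0.06, adjusted p = 0.000579). SOX2 was left slightly lower by its siRNA 1 than by siRNA 2 (-0.20, SE 0.07, adjusted p = 0.0316).

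**Figure D4:**
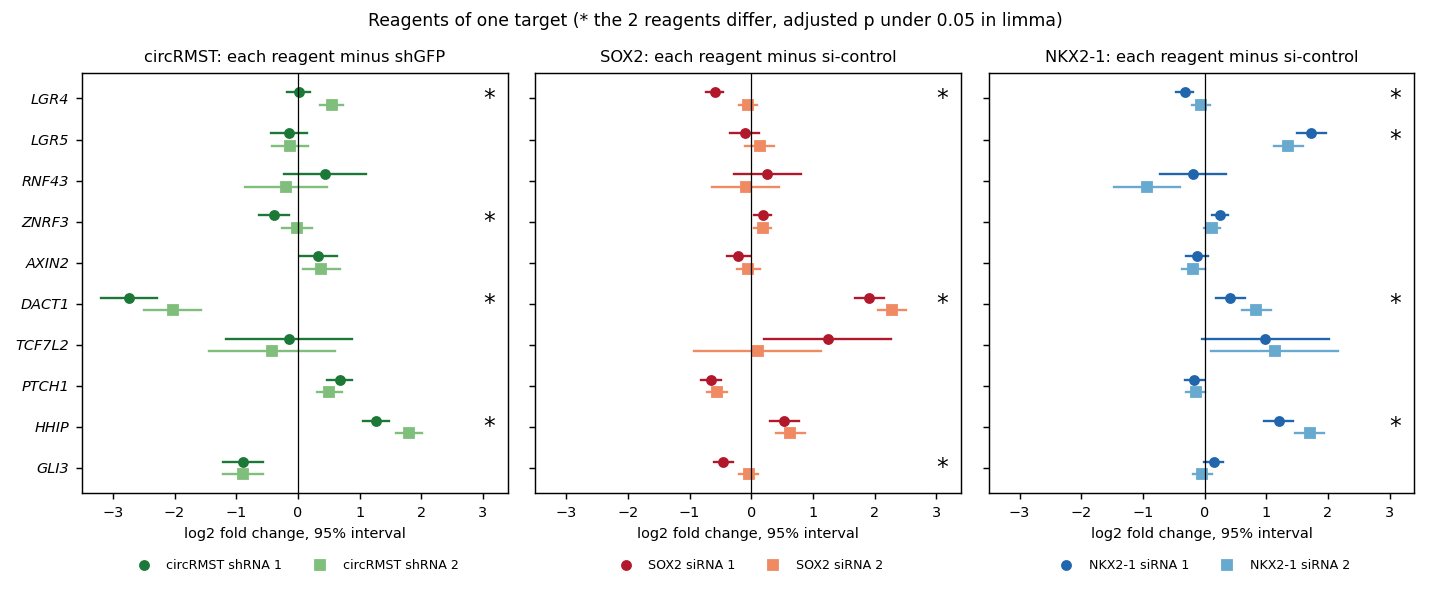
Log2 fold change of each reagent against its own control with 95% confidence intervals from limma, for circRMST shRNA 1 and 2, SOX2 siRNA 1 and 2 and NKX2-1 siRNA 1 and 2. An asterisk marks the genes for which the reagents of a target differed (adjusted p under 0.05), 4 for circRMST, 3 for SOX2 and 4 for NKX2-1.

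The other genes of both pathways are described beside the share of all genes called. In circRMST knockdown, where 27.8% of all genes were higher and 25.9% lower, 0 of the 12 Wnt ligands and R-spondins tested rose and 8 fell (WNT9A -2.13, WNT4 -2.07 and WNT3 -0.63). Of the secreted and membrane inhibitors 0 of 5 rose and 4 fell, among them NOTUM (-1.17), which strips Wnt proteins of their lipid, and KREMEN1 (-0.68), a partner of the DKK inhibitors. Of the other receptors 6 of 13 rose and 4 fell, with a median of 0.10 (ROR1 0.75, FZD6 0.62 and FZD3 -0.59). Among the signal transducers 10 of 18 rose and 4 fell, with a median of 0.18, with DVL1 (0.76) and AXIN1 (0.75) up and APC2 (-1.06) down. Of the TCF/LEF factors and cofactors 3 of 10 rose and 3 fell, with a median of 0.02, with the corepressors TLE2 (1.04), TLE3 (0.64) and TLE1 (0.61) up. Of the other feedback and target genes 1 of 11 rose and 7 fell, such as the ephrin receptor EPHB2 (-1.42), DACT3 (-1.25), a relative of DACT1, and TBX3 (-0.87). Of those that fell, 3 ligands, 1 inhibitor and 2 feedback or target genes had a knockdown mean under 10 and were tested only through their shGFP level, so they had to be lower and these counts are a description only. Without a filter on low values 10409 genes were lower and 4707 higher in this comparison, and at a mean of at least 50 there were 3563 lower and 5085 higher. The shGFP excess of the 8 ligands that fell was within the largest value seen in genes without siRNA-library reads, and so it was for the 4 inhibitors and for 5 of the 7 feedback and target genes. The same held for 3 of the 4 receptors that fell, 1 of the 4 transducers (APC2) and 1 of the 3 TCF/LEF factors and cofactors.

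With the SOX2 siRNAs, of the other Wnt receptors 2 of 13 rose and 9 fell, with a median of -0.39, beside 27.6% higher and 28.7% lower of all genes. ROR1 (-1.66), a receptor tyrosine kinase for Wnt ligands, the receptor FZD3 (-0.77) and PTK7 (-0.70) were the named falls. The 4 inhibitors tested fell, 1 of them to a mean under 10 (KREMEN2 -1.14, NOTUM -0.83 and KREMEN1 -0.79). Of the signal transducers 6 of 18 rose and 6 fell, with a median of 0.01, and the largest falls were WLS (-1.25), which carries Wnt proteins to the cell surface, PORCN (-0.66), which attaches their lipid, and CTNNBIP1 (-0.53), an inhibitor of beta-catenin. Of the ligands 4 of 10 rose and 2 fell, with a median of -0.01 (WNT10A 0.53, WNT10B -0.49 and WNT9A 0.48). Of the TCF/LEF factors and cofactors 4 of 11 rose, 1 of them from a control mean under 10, and 3 fell, with a median of 0.02 (TLE4 -1.39, PYGO2 0.81 and TLE2 -0.70). Of the other feedback and target genes 2 of 9 rose and 6 fell, with a median of -0.32, with EPHB3 (-0.93) and the cyclin CCND1 (-0.87) down and the Dishevelled antagonist NKD1 (0.82) up.

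With the NKX2-1 siRNAs, where 18.5% of all genes were higher and 21.4% lower, of the ligands 2 of 10 rose and 4 fell, with a median of -0.12, and WNT10B (-1.09), WNT4 (-1.03) and WNT9A (-0.97) fell. Of the other receptors 6 of 13 rose and 3 fell, with a median of 0.15 (ROR1 -0.59, FZD2 0.49 and FZD3 -0.38). Of the inhibitors 1 of 4 rose and 2 fell, with a median of -0.54 (KREMEN2 -0.81, NOTUM 0.39 and KREMEN1 -0.26). Of the transducers 6 of 18 rose and 6 fell, with a median of 0.03 (APC2 0.44, APC -0.40 and the tankyrase TNKS2 -0.29). Of the TCF/LEF factors and cofactors 4 of 11 rose and 1 fell, with a median of 0.12 (PYGO2 0.78, TCF7 -0.27 and LEF1 0.23). Of the other feedback and target genes 1 of 9 rose and 5 fell, with a median of -0.21 (CCND1 -0.70, EPHB3 -0.55 and EPHB2 0.46). Compared directly, the SOX2 siRNAs left 10 of 13 other receptors lower than the NKX2-1 siRNAs did and 1 higher (ROR1 -1.07, FZD2 -0.89 and PTK7 -0.88), and left WNT9A (1.45) and WNT4 (1.36) higher.

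On the Hedgehog side, of the genes that make and release the ligands 4 of 6 rose and 1 fell, with a median of 0.78 in circRMST knockdown (27.8% higher and 25.9% lower of all genes), with HHAT (1.08), which attaches a lipid to the ligand, and DISP1 (0.94) and SCUBE2 (0.90), which help to release it. With the SOX2 siRNAs 0 of 7 rose and 5 fell, with a median of -0.59, beside 28.7% lower of all genes (SCUBE2 -1.13, the ligand gene DHH -0.81 and DISP2 -0.59). With the NKX2-1 siRNAs 0 of 7 rose and 4 fell, with a median of -0.43, beside 21.4% lower (DHH -0.50, DISP2 -0.43 and SCUBE1 -0.17). Of the other receptors, coreceptors and transducers 2 of 12 rose and 5 fell, with a median of -0.52 in circRMST knockdown, among them GPR161 (-1.04), a ciliary receptor that holds the pathway off, the protein kinase A subunit PRKACA (-0.80) and the GLI inhibitor SUFU (-0.53). The shGFP excess of 3 of those 5, GPR161 and SUFU among them, was within the largest of the genes without siRNA-library reads. The same list had 3 of 12 up and 4 down with the SOX2 siRNAs (GPR161 0.44, PRKACB -0.29 and CDON -0.24) and 4 up and 2 down with the NKX2-1 siRNAs (GPR161 0.86, PRKACB -0.23 and SPOP 0.16). With the SOX2 siRNAs, 1 of the 4 falls, that of the coreceptor GAS1, was to a mean under 10. GAS1 is also among the 4 rises with the NKX2-1 siRNAs, so both counts are a description only. Of the 3 other GLI factors and Hedgehog targets tested in the shRNA table, 2 had a knockdown mean under 10 and are not described. NKX2-2, a Hedgehog target in the neural tube and the named gene of that list, fell in circRMST knockdown (-1.17), with a shGFP excess of 263, within that same largest value, and rose with the SOX2 siRNAs (1.16) and the NKX2-1 siRNAs (0.72).

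**Figure D5:**
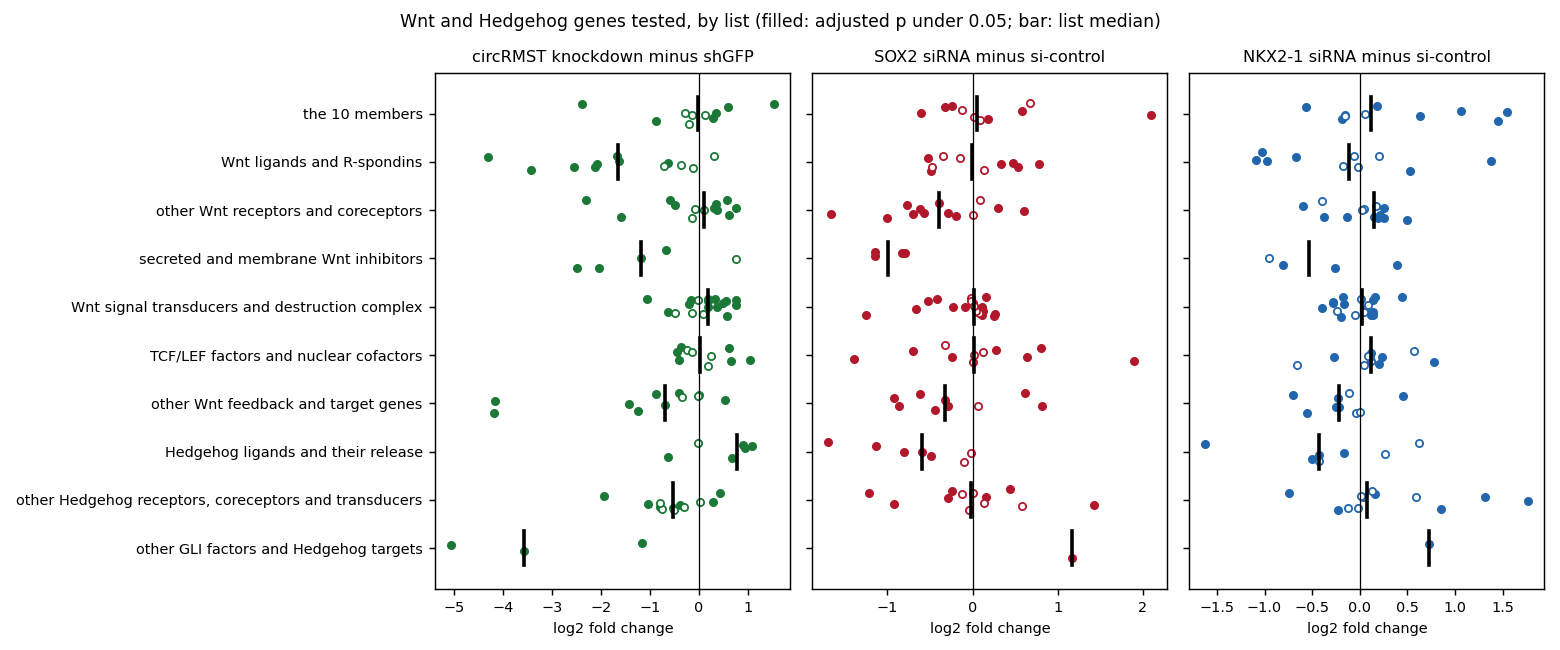
Log2 fold change of every tested gene in the member list and the 9 Wnt and Hedgehog lists, in each knockdown. Filled points passed at an adjusted p under 0.05 in limma, vertical bars mark list medians, and the x axes differ between panels. In circRMST knockdown the genes for Hedgehog ligands and their release have a median of 0.78, and several lists hold low-level genes tested only through shGFP.

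Genes with a pattern like that of the pathway readouts were listed by Pearson's r of log2 values over the 11 siRNA libraries, among 12868 genes with a symbol and a mean of at least 50. The libraries share treatments and controls, so r is a description of likeness with no test. Nearest to AXIN2 were PPIL4 (r = 0.940), KIAA0319L (r = 0.920) and SERPINB1 (r = 0.918). Nearest to PTCH1 were SMOX (r = 0.984), SUSD6 (r = 0.982) and DHRS4L2 (r = 0.981). AXIN2 spanned 299 to 363 normalized counts over these libraries and PTCH1 474 to 857.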

How the data were processed

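Gene expression was measured by RNA sequencing in 17 of the 27 samples of the series, while the other 10, from ChIP-seq, were not analysed here. Each deposited table, 1 for shRNA libraries (1 µg total RNA) and 1 for siRNA libraries (500 ng, poly(A) selected, per the labels' protocols), holds the authors' normalized counts, a signal per gene and library. The submitters' processing notes name cutadapt 2.5, STAR 2.5.2b, DESeq2 and the build hg38; the annotation, the counting tool and the use of strand are not given in the sources used here. Sequencing was paired-end with 150 bases, per the labels. Values of a deposited column were whole multiples of a step, 100% of them within 0.05 reads, so whole reads could be recovered. Non-human features (55 and 38) and pseudoautosomal copies on chromosome Y (7 and 11) were left out, at most 0.000109% of reads for the former, and 98.5% of IDs had a symbol.

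Fits used limma 3.58.1 (R 4.3.3) on log2(normalized count + 1), with all libraries of a table in the fit, group means and a trended eBayes prior, for genes with a mean of at least 10. Low genes' changes are understated on that scale. Knockdowns are the average of 2 reagents minus the control, two-sided, with Benjamini-Hochberg adjustment over all genes tested and a threshold of 0.05. The tables were normalized apart, so no test crosses them, and no gene length was used, so levels are not compared between genes. Alternatives were edgeR 4.0.16 and DESeq2 1.42.0 on the recovered reads, other scalings, filters and pseudocounts, a replicate block and leaving out each library. The limma fit was also run on simulated counts with few changed genes and the same spread setting for every gene. That setting is simpler than these data, so the run checks the code and not the calls. Replicates differed by more than counting error (chi-square per degree of freedom 1.51 to 5.52).

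The 10 genes are always named. From each pathway list and comparison, up to 3 genes were named that passed with a mean of at least 50 and the largest change, and for AXIN2 and PTCH1 the 3 most alike. The members, lists and tests were chosen with earlier results of these data known. Of the 7 neuroendocrine markers listed, 1 is not reported here, and their sums leave it out.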

Additional observations from a re-analysis of the deposited data

Results flagged for a closer look

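The size of a change differed between the reagents of a target for 11 gene and target pairs, by a direct limma contrast of one reagent minus the other (Benjamini-Hochberg over all genes tested, n = 2 libraries each). Between the circRMST shRNAs, every such call, of LGR4, DACT1, HHIP and ZNRF3, was lost with no filter on low values. In a fit of only the libraries compared, those of DACT1 and ZNRF3 were lost. LGR4 differed for all 3 targets: circRMST shRNA 1 minus shRNA 2 gave -0.53, adjusted p = 0.000111, SOX2 siRNA 1 minus siRNA 2 gave -0.54, adjusted p = 4.95e-06, and NKX2-1 siRNA 1 minus siRNA 2 gave -0.27, adjusted p = 0.00852. The last was lost without NKX2-1 siRNA 1 replicate 2 (-0.21, adjusted p = 0.114) or siRNA 2 replicate 2 (-0.26, adjusted p = 0.0632), where adjusted p spanned 0.00427 to 0.114 across 22 settings.

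DACT1 also differed for all 3: -0.71, adjusted p = 0.0267 between the circRMST shRNAs, -0.37, adjusted p = 0.0378 between the SOX2 siRNAs and -0.42, adjusted p = 0.0128 between the NKX2-1 siRNAs. Leaving out 1 library ended each of these calls at least once. For circRMST, this held for shRNA 1 replicate 2 (-0.54, adjusted p = 0.181), shRNA 2 replicate 2 (-0.52, adjusted p = 0.225) and shGFP replicates 1 and 2 (-0.71, adjusted p = 0.0748 and -0.71, adjusted p = 0.0735). For SOX2, it held for siRNA 1 replicate 2 (-0.30, adjusted p = 0.203) and siRNA 2 replicates 1 and 2 (-0.42, adjusted p = 0.0940 and -0.32, adjusted p = 0.219). For NKX2-1, it held for siRNA 1 replicate 1 (-0.31, adjusted p = 0.162) and siRNA 2 replicates 1 and 2 (-0.43, adjusted p = 0.0555 and -0.40, adjusted p = 0.0772). Adjusted p spanned 0.0157 to 0.225 across 17 settings, 0.0102 to 0.219 across 22 settings and 0.00906 to 0.162 across 22 settings, in that order.

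HHIP differed between the circRMST shRNAs (-0.53, adjusted p = 0.000578) and between the NKX2-1 siRNAs (-0.51, adjusted p = 0.00291), the latter lost without siRNA 2 replicate 2 (-0.36, adjusted p = 0.108; adjusted p spanned 3.31e-06 to 0.108 across 22 settings). LGR5 differed between the NKX2-1 siRNAs (0.37, adjusted p = 0.0286) and lost its call without any of the 4 NKX2-1 siRNA libraries, from 0.42, adjusted p = 0.0740 without siRNA 2 replicate 1 to 0.33, adjusted p = 0.170 without siRNA 2 replicate 2 (adjusted p spanned 0.000982 to 0.170 across 22 settings). GLI3 differed between the SOX2 siRNAs (-0.42, adjusted p = 0.000487). ZNRF3 differed between the circRMST shRNAs (-0.37, adjusted p = 0.0286), which was lost without shRNA 1 replicate 2 (-0.22, adjusted p = 0.335) and without shRNA 2 replicate 1 (-0.37, adjusted p = 0.124) or 2 (-0.37, adjusted p = 0.115; adjusted p spanned 0.00999 to 0.335 across 17 settings). RNF43 between the circRMST shRNAs did not pass (0.64, adjusted p = 0.183) but did without shRNA 2 replicate 1 (1.31, adjusted p = 0.0105), and the replicates of shRNA 2 were at 108 and 42.4 normalized counts.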

How the results depend on the processing

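Over 1418 pairs of a member's value and an alternative, 1332 stayed on their side of the threshold, 67 lost a call and 19 gained one. The sign changed in 40, of which 0 were called values, and 0 were called under the alternative. For HHIP, DACT1, PTCH1 and GLI3 in circRMST knockdown, for HHIP, DACT1, PTCH1, LGR4 and GLI3 with the SOX2 siRNAs and for HHIP, LGR5 and DACT1 with the NKX2-1 siRNAs the call held in each alternative. No alternative left out a whole reagent, so a call carried by 1 siRNA could hold in all of them. With SOX2 siRNA 2 alone, LGR4 (-0.06, adjusted p = 0.527) and GLI3 (-0.04, adjusted p = 0.709) did not pass in limma. Between the circRMST shRNAs 4 members and 3639 genes were called; 2 members passed at a threshold of 0.01, 2 in a fit of only the libraries compared, 0 members and 1325 genes with no filter on low values, and 2 to 4 members and 2230 to 3129 genes when each library was left out. Between the SOX2 siRNAs 3094 genes were called, and 1912 to 3221 with a library left out. Between the NKX2-1 siRNAs 4 members were called, 2 at a threshold of 0.01, 7 with equal totals and 0 to 5 with a library left out. Equal totals changed the calls higher and lower from 5294 and 4936 to 3636 and 6513 in circRMST knockdown (no filter: 4707 and 10409) and from 3092 and 3592 to 4224 and 2643 with the NKX2-1 siRNAs; the cause was not tested. Deviations of same-numbered libraries from their group means had low correlations (r from -0.042 to 0.047 over 6 pairs of the shRNA table and -0.11 to 0.024 over 20 of the siRNA table). In groups of 2 the deviations of the replicates mirror each other, so values repeat among these pairs. Low correlations cannot show how the libraries were prepared, so whether the numbers pair the samples stays unknown. The replicate block gave 4 members higher and 2 lower in circRMST knockdown (5236 and 4891 genes), 3 and 3 with the SOX2 siRNAs (4078 and 4358) and 5 and 1 with the NKX2-1 siRNAs (2421 and 2980), where RNF43 was at -0.38, adjusted p = 0.243. Depth limits TCF7L2 most, with 11 to 49 reads per group, and a filter at a mean of 50 left it untested, and RNF43 in the siRNA table too.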

Other observations

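HHIP-AS1, a non-coding gene with 136 bases between its end and the start of HHIP (chr4:144642916-144646019), was looked at after its values were seen. It was at 57.4 ± 11.4 normalized counts (SD, n = 2) in shGFP, and at 121 ± 15.9 and 108 ± 13.8 under circRMST shRNA 1 and 2 (n = 2 each), a rise (0.99, SE 0.22, adjusted p = 0.000591; limma). It rose with the NKX2-1 siRNAs too (0.92, SE 0.17, adjusted p = 0.000122), from 42.7 ± 4.22 in si-control (n = 3) to 91.9 ± 11.5 and 72.0 ± 4.61. With the SOX2 siRNAs, where HHIP rose less, it was at 35.5 ± 3.16 and 45.1 ± 2.66 and did not pass (-0.09, SE 0.17, adjusted p = 0.692, 95% interval -0.45 to 0.27). In the direct contrast it was lower with the SOX2 than with the NKX2-1 siRNAs (adjusted p = 6.51e-06). The genes do not overlap in the annotation.

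Other genes of the lists with a mean under 50 were also picked after their values were seen. Between the siRNA targets, GAS1 moved in opposite directions and WNT5A in the same direction by different sizes. GAS1, a Hedgehog coreceptor, was at 12.8 ± 2.95 in si-control (n = 3), 50.2 ± 8.24 and 41.6 ± 6.50 with the NKX2-1 siRNAs and 9.20 ± 0.928 and 4.52 ± 3.09 with the SOX2 siRNAs (n = 2 each), a rise of 1.77 (adjusted p = 8.97e-05) and a fall to -0.92 (adjusted p = 0.0186) on the log2 scale of limma. Its SOX2 siRNA means were under the 10 required over all libraries. GAS1 was thus tested through its higher NKX2-1 siRNA groups, so the rise and the fall are a description only. WNT5A, a ligand of the non-canonical branch, rose with the NKX2-1 siRNAs (1.38, SE 0.28, adjusted p = 0.000214) and with the SOX2 siRNAs (0.78, SE 0.28, adjusted p = 0.0184), and the targets differed (-0.60, SE 0.26, adjusted p = 0.0470).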
